A study of Mus musculus with 6 samples.

Results

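The 10 genes described here belong to the Hippo-YAP pathway: the coactivators Yap1 and Wwtr1, their DNA-binding partner Tead1, and 7 genes known as their targets, Ccn1, Ccn2, Ankrd1, Amotl2, Ptpn14, Axl and Crim1. They were chosen by symbol from the 19938 genes that have a probe set of their own on the array, and all 10 were found. Where a gene had several rows, its row of highest mean signal across all 6 arrays was kept, a choice that concerned Tead1 alone, which has 2 rows. The rule used the mean level, not the difference between the groups, but the genes were put together with earlier results of these data known, so their counts are a description and not independent support.

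Affymetrix arrays were used to measure the RNA of E14, a mouse embryonic stem cell line, with 3 control arrays and 3 arrays of Tdg knockdown cells. The protein product of Tdg, thymine DNA glycosylase, starts base excision repair and takes out oxidised forms of methylcytosine that TET enzymes make. Both groups were grown on 0.1% gelatin in medium with 15% serum and 1000 units/ml LIF, the cytokine that keeps such cells undifferentiated. The same treatment text stands on the labels of both groups: infection with lentiviral vectors (multiplicity 10), and puromycin at 2 ug/ml 48 h later. Which hairpin was used against Tdg, and which vector the control cells received, was not analysed here. Whether arrays of a group stand for separate cultures is not said in the labels, and p-values therefore reflect the spread between these arrays alone, which can be technical.

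The Hippo pathway is a kinase chain in which the MST kinases activate the LATS kinases, and these phosphorylate YAP (Yap1) and its paralog TAZ (Wwtr1). Phosphorylated YAP and TAZ stay in the cytoplasm or are degraded. When the chain is inactive they enter the nucleus, bind TEAD factors and raise the transcription of genes for matrix-associated proteins, cytoskeletal regulators and the pathway's own inhibitors. In the early mouse embryo YAP and TEAD4 act in the outer cells that become trophectoderm. YAP activity is set largely after translation, so the abundance of its RNA is not a measure of it.

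TEAD factors bind the core GGAATG, which reads CATTCC on the other strand. These 6 letters were searched on both strands in the 250 bases before each start site, in RefSeq sequences of build GRCm38.p6. A window was found for 8 of the 10 genes, Ccn2 and Tead1 having no entry. All 8 genes with a window held the core, against 12.6% of all 32851 windows of this length and 13.2% of the 15614 named genes with a window. Of the 9 further genes with a window in a list of common YAP and TAZ targets, described below, 0 held it. Among other genes of the pathway it was in 4 of 6 TEAD and Vgll genes and 3 of 16 kinase genes with a window. It was also in 4 of 9 polarity and junction genes, 4 of 10 serum response factor targets, 1 of 5 other reported YAP targets and 0 of 2 further angiomotins. The windows of Ccn1, Ankrd1 and Ptpn14 are shown because these genes fell in knockdown cells and because the core lies upstream of the annotated gene. The core is in capitals, and the strand is that of the gene. The Ccn1 window lies at chr3:145649986-145650235 (minus strand) with the core 103 to 98 bases before the start. The Ankrd1 window lies at chr19:36119845-36120094 (minus strand) with cores at 210 to 205 and 123 to 118 bases. Of the Ptpn14 window the 198 bases outside the gene are shown, chr1:189728018-189728215 (plus strand), with the core 146 to 141 bases before the start.
Ccn1: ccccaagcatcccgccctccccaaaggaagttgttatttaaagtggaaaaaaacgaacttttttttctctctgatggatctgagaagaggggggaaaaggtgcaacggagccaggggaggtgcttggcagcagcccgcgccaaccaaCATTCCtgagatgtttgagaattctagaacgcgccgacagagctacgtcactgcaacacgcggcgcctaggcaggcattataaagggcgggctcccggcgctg
Ankrd1: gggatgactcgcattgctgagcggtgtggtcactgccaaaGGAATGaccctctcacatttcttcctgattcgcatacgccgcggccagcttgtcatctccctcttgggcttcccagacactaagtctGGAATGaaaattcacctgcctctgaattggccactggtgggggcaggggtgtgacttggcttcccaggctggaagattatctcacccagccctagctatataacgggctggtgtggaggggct
Ptpn14: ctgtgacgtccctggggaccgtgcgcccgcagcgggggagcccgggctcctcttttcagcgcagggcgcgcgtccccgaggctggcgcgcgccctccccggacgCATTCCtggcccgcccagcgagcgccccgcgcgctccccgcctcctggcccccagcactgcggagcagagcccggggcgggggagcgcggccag

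The cores of the other 5 genes are shown with their 20-base surroundings, to let the flanks be compared. In Amotl2 the core is CATTCC at chr9:102717739-102717744, 65 to 60 bases before the start used here. It lies inside the annotated gene, which begins further upstream at 102717091. The other cores lie outside the genes. They are at chr7:25788961-25788966 for Axl (233 to 228 bases before the start used here), chr17:78200169-78200174 for Crim1 (79 to 74), chr9:8004732-8004737 for Yap1 (141 to 136) and chr3:57576041-57576046 for Wwtr1 (136 to 131). Some of these starts also lie inside the annotated gene, which holds 191 of the 250 window bases for Axl, 42 for Yap1 and 15 for Crim1. A second Wwtr1 window holds the same core 170 to 165 bases before its start.
Amotl2: actctcaCATTCCtggcata
Axl: ttctacaGGAATGtttacca
Crim1: gggggggGGAATGaggtagg
Yap1: gtctgcaGGAATGtagcgac
Wwtr1: actcaaaGGAATGcagatag
All 8 genes with a window hold the core, called and uncalled alike. Its presence therefore could not part the genes that fell from those that did not pass the test. The letters TGANTCA of AP-1 and the CArG box of serum response factor were in 0 of the 8 genes' windows, against 6.75% and 1.47% of all windows. At such low shares, 0 matches among so few genes cannot show a lack of either. A match of letters is a description of the window and does not show binding.

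The arrays stood close together, with correlations of 0.990 to 0.998 over the named genes, and knockdown replicate 3 lay apart on the first principal component (31.0, against -17.5 to 5.2 for the other 5 arrays). Tdg, measured by 4 rows shared with the pseudogene Tdg-ps2, fell by 3.03 on the log2 scale to 12.2% of control (limma, adjusted p 8.79e-05). The extraction protocol names Kdm2b, while titles and design name Tdg. The 8 stem cell markers, Pou5f1, Sox2, Nanog, Zfp42, Esrrb, Klf4, Dppa5a and Utf1, read 10.37 to 13.43 on all arrays, above the array medians of 7.41 to 7.48.

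The transcripts of several YAP and TAZ targets were lower in knockdown cells, while those of the coactivators and of TEAD1 itself did not pass the test. Of the 10 genes, Ccn1, Ankrd1, Amotl2 and Ptpn14 fell, to between 60.2% and 71.9% of the control level, 0 rose and 6 did not pass (limma, adjusted over all named genes, threshold 0.05). Across all named genes 0.792% were called, 0.552% lower and 0.241% higher. With quantile normalization the split over all named genes moved from 110 lower and 48 higher to 220 lower and 153 higher. The groups did not overlap for 6 of the 10 genes, with knockdown lower in each, against 11% of all named genes in that direction and 7.98% in the other. The median difference over the 10 genes was -0.19 on the log2 scale, beside 0.02 over all named genes.

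**Figure D1:**
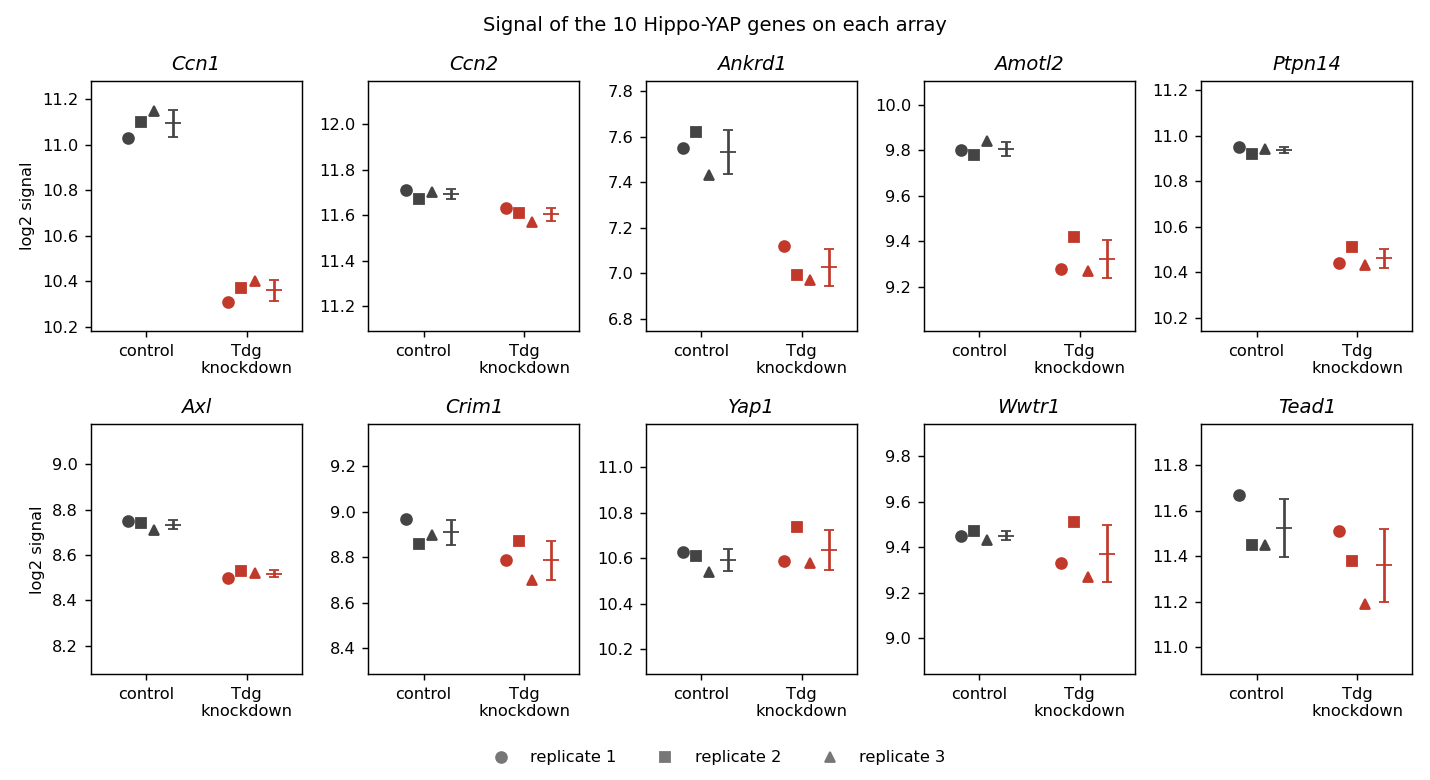
Deposited log2 signal (vertical axis) of each of the 10 genes on the 3 control arrays (grey) and the 3 Tdg knockdown arrays (red), marker shape giving the replicate number, with the group mean ± SD at the right of each group. Every panel spans 1.1 log2 units, so that distances can be compared. The arrays form groups that do not meet for Ccn1, Ankrd1, Amotl2 and Ptpn14, and also for the uncalled Ccn2 (gap 0.04) and Axl (gap 0.18). Those of Yap1, Wwtr1, Tead1 and Crim1 overlap.

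Ccn1 encodes a secreted matricellular protein that binds integrins and is among the most used readouts of YAP activity. Its log2 signal was 11.03, 11.10 and 11.15 on the control arrays and 10.31, 10.37 and 10.40 on the knockdown arrays. All 3 knockdown arrays lay below all 3 controls, with a gap of 0.63 between the groups. The difference was -0.73 (SE 0.06, adjusted p 0.0114), a level 1.66-fold lower, and the 95% confidence interval ran from 54.2% to 66.8% of control. It ranked 30 from the lowest among the differences of all named genes.

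Ccn2 encodes a closely related matricellular protein, also a standard YAP readout. It read 11.71, 11.67 and 11.70 in control and 11.63, 11.61 and 11.57 in knockdown cells. The knockdown arrays were again the lower ones, but the groups were only 0.04 apart. The difference of -0.09 (SE 0.06, adjusted p 0.616) did not pass, and its 95% interval of -0.23 to 0.05 does not reach the difference seen in Ccn1. Within each array, the Ccn1 value less the Ccn2 value was -0.68, -0.57 and -0.55 in control and -1.32, -1.24 and -1.17 in knockdown cells. This contrast, chosen after the values were seen, shifted by -0.64 without overlap, with an exact two-sided permutation p of 0.1, the smallest that 3 against 3 arrays allow. A difference between rows shows unequal change in signal, not that Ccn2 was unchanged.

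The other 4 members of the CCN family did not pass. Ccn3 differed by 0.25 (adjusted p 0.409), Ccn4 by 0.07 (0.869) and Ccn5 by 0.05 (0.887), while Ccn6 had equal group means. The groups of these 4 genes overlapped. Of the 6 CCN genes, Ccn1 was thus the 1 that was called.

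Ankrd1 encodes a nuclear ankyrin repeat protein of muscle and stressed cells. Its signal was 7.55, 7.62 and 7.43 in control and 7.12, 6.99 and 6.97 in knockdown cells, near the array medians, and its distance from background was not analysed here. The 2 groups were 0.31 apart. The difference was -0.51 (SE 0.08, adjusted p 0.0443), which leaves 70.4% of control, with a 95% interval from 62.0% to 79.9%. Of the 4 calls this was the nearest to the threshold, and with quantile normalization it was lost (-0.53, adjusted p 0.0547).

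Amotl2 and Ptpn14 are both targets and inhibitors of YAP. Amotl2 encodes an angiomotin, a junction protein that binds YAP and holds it outside the nucleus. Its values were 9.80, 9.78 and 9.84 in control and 9.28, 9.42 and 9.27 in knockdown cells, with knockdown replicate 2 the highest of its group. The groups stood 0.36 apart, and the difference was -0.48 (SE 0.07, adjusted p 0.0340), or 71.5% of control. Ptpn14 encodes a phosphatase that binds YAP through its PPxY motifs. It read 10.95, 10.92 and 10.94 in control and 10.44, 10.51 and 10.43 in knockdown cells. The controls spread over an SD of 0.02 and the groups were 0.41 apart. The difference was -0.48 (SE 0.06, adjusted p 0.0285), or 71.9% of control.

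The remaining angiomotins differed in the same direction without passing. Amotl1 read 9.25, 9.10 and 9.20 against 8.88, 8.85 and 8.76, a difference of -0.35 (adjusted p 0.0839), and was called with the replicate number as a block (adjusted p 0.0438). Amot, the founding member, read 7.94, 7.97 and 7.71 against 7.65, 7.70 and 7.48 (-0.26, adjusted p 0.318). None of the 4 genes of this group had overlapping groups, beside 19% of all named genes whose groups do not overlap in either direction.

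Axl, a receptor tyrosine kinase for the ligand Gas6, showed a small and even shift. Its signal was 8.75, 8.74 and 8.71 in control and 8.50, 8.53 and 8.52 in knockdown cells. The groups were 0.18 apart, with SDs of 0.02 in both. The difference of -0.22 (SE 0.06) corresponds to 86.1% of control and did not pass (adjusted p 0.157), although its 95% interval, not adjusted for the number of genes, was -0.35 to -0.08. Crim1 encodes a membrane protein that binds bone morphogenetic proteins. It read 8.97, 8.86 and 8.90 against 8.79, 8.87 and 8.70. Knockdown replicate 2 lay above control replicate 2, and the difference of -0.12 (SE 0.07, adjusted p 0.562) did not pass.

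**Figure D2:**
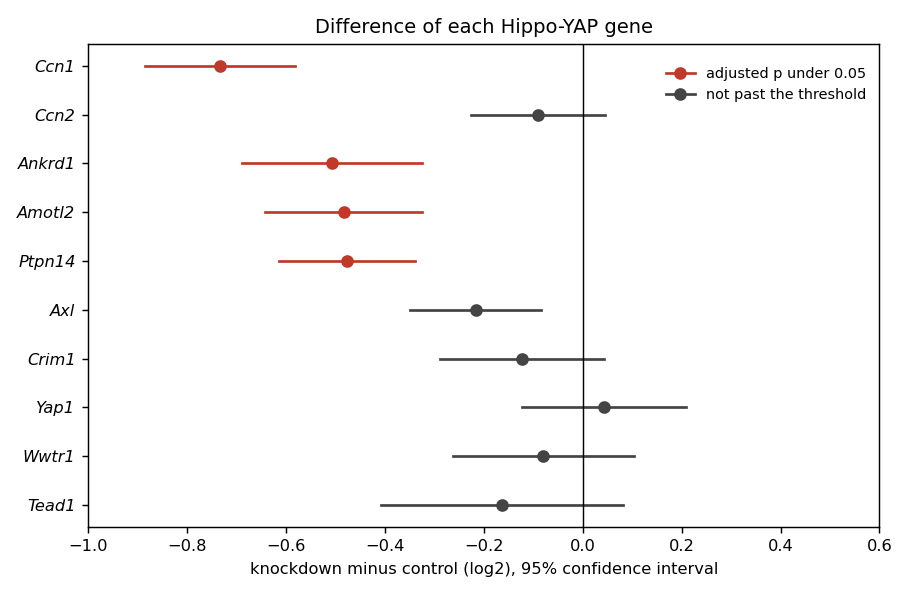
Knockdown minus control (horizontal axis, log2) for each of the 10 genes, with the 95% confidence interval from the limma fit, unadjusted. Red marks an adjusted p under 0.05. The 4 called intervals lie wholly below -0.32, and that of Yap1 spans -0.12 to 0.21.

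Yap1 RNA did not pass the test. It read 10.63, 10.61 and 10.54 in control and 10.59, 10.74 and 10.58 in knockdown cells. The groups overlapped, and knockdown replicate 2 held the highest value. The difference was 0.04 (SE 0.07, adjusted p 0.858), with a 95% interval of -0.12 to 0.21, or 91.9% to 116% of control.

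Wwtr1, which encodes TAZ, read 9.45, 9.47 and 9.43 against 9.33, 9.51 and 9.27. The controls lay within the range of the knockdown arrays, whose SD was 0.12 against 0.02. The difference was -0.08 (SE 0.08, adjusted p 0.756), with an interval of -0.26 to 0.10.

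Tead1 encodes a TEAD factor that carries YAP and TAZ to DNA. Its row read 11.67, 11.45 and 11.45 in control and 11.51, 11.38 and 11.19 in knockdown cells, and it had the widest spread among the 10 genes, with SDs of 0.13 and 0.16. In each group replicate 1 was the highest. The difference was -0.16 (SE 0.10, adjusted p 0.616), with an interval of -0.41 to 0.08. The second Tead1 row, with a lower mean, differed by -0.11.

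The other TEAD genes did not pass either. Tead2 differed by -0.07 (adjusted p 0.796), Tead3 by -0.26 (0.413) and Tead4, the TEAD of early trophectoderm, by 0.11 (0.663). The Vgll genes encode cofactors that compete with YAP for TEAD. Vgll3 read 8.92, 8.79 and 8.86 against 8.48, 8.47 and 8.37, without overlap. Its difference of -0.42 just missed the threshold (adjusted p 0.0504) and passed with the replicate block (adjusted p 0.0322), with quantile normalization and without knockdown replicate 3. Vgll4 differed by -0.20 (adjusted p 0.252), Vgll1 by 0.07 (0.837) and Vgll2 by 0.15 (0.854). Of these 10 coactivator, TEAD and Vgll genes 0 were called by limma and 2 had an unadjusted p under 0.05, which 12.5% of all named genes had. Their median difference was -0.08.

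A list of 22 genes that tumour studies use as common YAP and TAZ targets, with all 7 targets above among them, gave a wider view. All 22 were measured: 6 fell, 0 rose and 16 did not pass, with a median difference of -0.16. The groups of 12 did not overlap, all with knockdown lower, against 11% of all named genes in that direction. Since 4 of the 6 that fell are genes described above, the other 15 are given apart. Of these 15, 2 fell, 0 rose and 13 did not pass, and the groups of 6 did not overlap. Their median was -0.13 (-0.06 without knockdown replicate 3). Both rates of calls are to be read beside the 0.552% of all named genes called lower. The list was chosen with earlier results of these data known.

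The further genes that fell were Igfbp3 and Tgfb2. Igfbp3, a secreted carrier of insulin-like growth factors, read 10.90, 10.93 and 10.89 against 10.16, 10.24 and 10.15. Its difference of -0.72 (SE 0.06, adjusted p 0.00865) was close in size to that of Ccn1. Tgfb2, a TGF-beta ligand, read 7.32, 7.36 and 7.38 against 6.79, 6.82 and 6.92, a difference of -0.51 (SE 0.06, adjusted p 0.0291).

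Of the same list, 2 more genes missed the threshold and passed with the replicate block. The ectonucleotidase gene Nt5e differed by -0.43 (adjusted p 0.0589, blocked 0.0368, and 0.0488 without knockdown replicate 3). Lats2, a kinase of the pathway that YAP itself induces, differed by -0.39 (adjusted p 0.0575, blocked 0.0417). Its values of 7.80, 7.69 and 7.79 lay above 7.33, 7.44 and 7.35. Nuak2, a kinase, differed by -0.33 (adjusted p 0.0963), without overlap between the groups. In the other direction, Rbms3 differed by 0.23 (0.425), Foxf2 by 0.17 (0.605), Fjx1 by 0.13 (0.655), Asap1 by 0.09 (0.786) and Dock5 by 0.04 (0.846). F3, Ccdc80, Gadd45a and Myof differed by -0.19, -0.13, -0.10 and -0.09, with adjusted p of 0.609 to 0.753.

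Among 9 measured genes of a list of other reported YAP targets, 1 fell, 0 rose and 8 did not pass (median -0.13, and -0.08 without knockdown replicate 3). The 1 was Thbs1, a matrix glycoprotein gene, at 10.84, 10.82 and 10.79 against 9.88, 10.00 and 9.86 (-0.90, SE 0.07, adjusted p 0.00773). With the replicate block 3 of the 9 were called lower. The additional calls were Inhba, an activin subunit gene (-0.46, adjusted p 0.123, blocked 0.0261, and 0.0255 without knockdown replicate 3), and Pdgfb, a growth factor gene (-0.42, 0.0828, blocked 0.0339), both named after their values were seen. In the other direction, the growth factor genes Fgf2 (0.36, adjusted p 0.232) and Fgf1 (0.26, adjusted p 0.295) differed without overlap and did not pass. Fgf2 and Fgf1 too were named with their values known. Across all named genes 3.08% were called with the block, and 2.01% were called lower.

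The kinases and their partners upstream of YAP held 0 calls by limma. Of 17 measured genes 14 lay below 0, as did 43.5% of all named genes, with a median of -0.06 that was -0.0083 without knockdown replicate 3. Lats2, given above, was joined with the block by Wwc2, a scaffold of the LATS kinases (-0.33, adjusted p 0.123, blocked 0.0489). Stk4, an MST kinase, differed by -0.13 (0.447), Lats1 by -0.12 (0.765) and Nf2, the merlin tumour suppressor, by 0.05 (0.870). Stk4, Lats1 and Nf2 were picked after their values were seen.

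The 14 genes of polarity complexes, junctions and atypical cadherins also had 0 calls and a median of -0.06. Those with the smallest p were Patj (-0.39) and Crb3 (-0.35), parts of the apical Crumbs complex. Both had an adjusted p of 0.0985, and with the block they passed (0.0292 and 0.0355). At an unadjusted p under 0.05 limma gave 2 of the 17 kinase genes and 4 of these 14, beside 12.5% of all named genes.

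**Figure D3:**
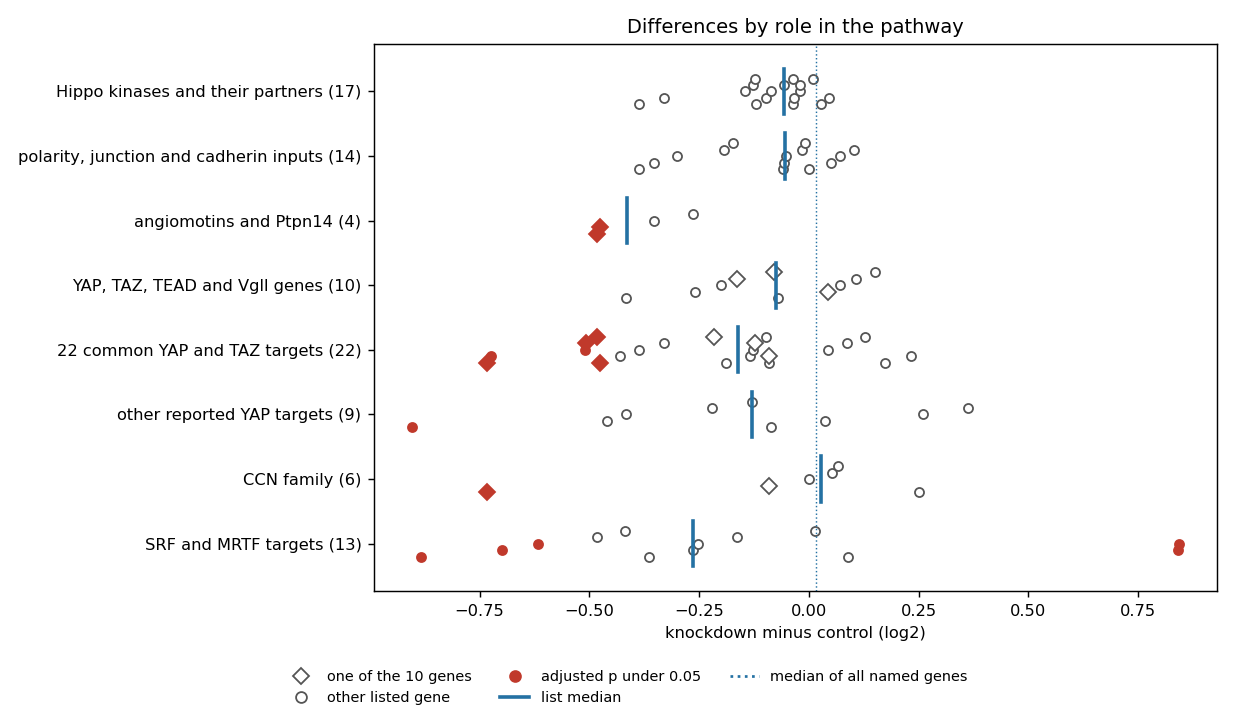
Knockdown minus control (horizontal axis, log2) of each measured gene, in rows by pathway role with the number measured, spread vertically for legibility. Diamonds are the 10 genes, red marks an adjusted p under 0.05, blue bars are list medians and the dotted line is the median of all named genes, 0.02. The list of angiomotins and Ptpn14 has its median at -0.42 and the CCN family at 0.03 (-0.06 without knockdown replicate 3). A gene can stand in several rows.

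Several YAP targets, Ccn1, Ccn2 and Ankrd1 among them, also respond to serum response factor and its actin-regulated coactivators. In a list of 13 measured targets of that factor, 3 fell, 2 rose and 8 did not pass. The shares over all named genes were 0.552% lower and 0.241% higher. The list had a median of -0.26 (-0.22 without knockdown replicate 3). Those that fell encode contractile or actin-binding proteins: Tagln (-0.88, adjusted p 0.0318), Tpm1 (-0.70, adjusted p 0.0115) and Cnn1 (-0.62, adjusted p 0.0326). Those that rose were the immediate early genes Egr1 (0.84, adjusted p 0.00803) and Fos (0.84, adjusted p 0.0360). With the block 6 fell and 2 rose, when 3.08% of all named genes were called and 2.01% were called lower. Srf itself differed by 0.09 (0.683) without the block. The part of either factor in the differences of Ccn1 and Ankrd1 was not tested.

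Genes whose profile over the 6 arrays was most like that of Ccn1 were sought among the 1011 genes that differed by at least 0.3 in size. Each profile was centred and scaled to an SD of 1, and likeness is the root mean square difference in those units. The nearest to Ccn1 were Dtx4 (0.04), Cln6 (0.06) and Abca2 (0.08), and their group differences were -0.37, -0.37 and -0.34. By limma Dtx4 passed (adjusted p 0.0486), while Cln6 (0.0504) and Abca2 (0.0575) did not. Dtx4, a ubiquitin ligase gene, read 8.59, 8.61 and 8.66 against 8.23, 8.25 and 8.28. It shares with Ccn1 that replicate 1 was the lowest and replicate 3 the highest of each group. The nearest to Ccn2 in the same set were Mpig6b (0.04), the tight junction gene Cgn (0.08) and Rhobtb3 (0.09). Their group differences were -0.41, -0.37 and -0.55, and none passed the test. Ccn2 itself, at -0.09, lies below the 0.3 minimum, so genes that differed as little as Ccn2 were not searched. With so few arrays many profiles are close, and likeness says nothing of shared control.

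Markers of other cell types were read beside these results. The mean log2 signal of 11 fibroblast markers was 6.81 to 7.003 in control and 6.81 to 7.11 in knockdown cells. That of 9 trophectoderm markers was 8.29 to 8.40 against 8.22 to 8.34, and that of 9 primitive endoderm markers 7.56 to 7.67 against 7.56 to 7.71. The ranges of the groups overlapped in each list, and 0 of the 29 markers passed the test by limma, while 6 had an unadjusted p under 0.05, beside 12.5% of all named genes. Of the fibroblast markers 3 lay above the median of every array and 5 below it. These counts were 5 and 3 for trophectoderm and 3 and 3 for primitive endoderm. The epithelial keratin genes Krt8 (-0.38, adjusted p 0.150, blocked 0.0329) and Krt18 (-0.32, adjusted p 0.0815, blocked 0.0445) passed with the block. With it 3.08% of all named genes were called, and 2.01% were called lower. Of the other 4 markers with an unadjusted p under 0.05, Krt7 (-0.19), the fibroblast marker Pdgfrb (-0.26) and the endoderm marker Dab2 (-0.30) were lower and the trophectoderm gene Hand1 (0.32) was higher, with adjusted p of 0.143 to 0.311. The trophectoderm regulators Cdx2 (0.02) and Gata3 (-0.03) differed little, with adjusted p of 0.956 and 0.901. Elf5, another, differed by 0.17 (0.761). These markers were picked after their values were seen. In such bulk RNA, fewer cells expressing a gene and less RNA per cell cannot be told apart. The part of other cell types in the differences was not tested.

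The calls rest on all arrays but knockdown replicate 3, the array that lay apart. Without it, when 0.797% of all named genes were called lower, the same 4 genes were called, with adjusted p from 0.00807 to 0.0458 and differences of -0.75 for Ccn1, -0.48 for Ankrd1, -0.46 for Amotl2 and -0.46 for Ptpn14. Without any other single array all 4 calls were lost, and the list of 22 targets fell from 6 calls to 0. In those 5 refits the adjusted p was 0.0607 to 0.103 for Ccn1, 0.127 to 0.247 for Ankrd1, 0.0758 to 0.219 for Amotl2 and 0.0776 to 0.208 for Ptpn14. The calls over all named genes changed likewise, from 158 to between 0 and 15. The sizes of the differences changed little: over the 6 refits Ccn1 ran from -0.77 to -0.71, Ankrd1 from -0.56 to -0.46, Amotl2 from -0.53 to -0.46 and Ptpn14 from -0.50 to -0.46. In each of them 5 of the 10 genes had an unadjusted p under 0.05, as did 7.57% to 14.7% of all named genes. The calls of Igfbp3 and Tgfb2 were lost in the same 5 refits (adjusted p 0.0560 to 0.102 and 0.0921 to 0.208), and Thbs1 was called in 3 of the 6. The 3 contractile genes were called without knockdown replicate 3 alone, and Egr1 and Fos also without control replicate 3.

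**Figure D4:**
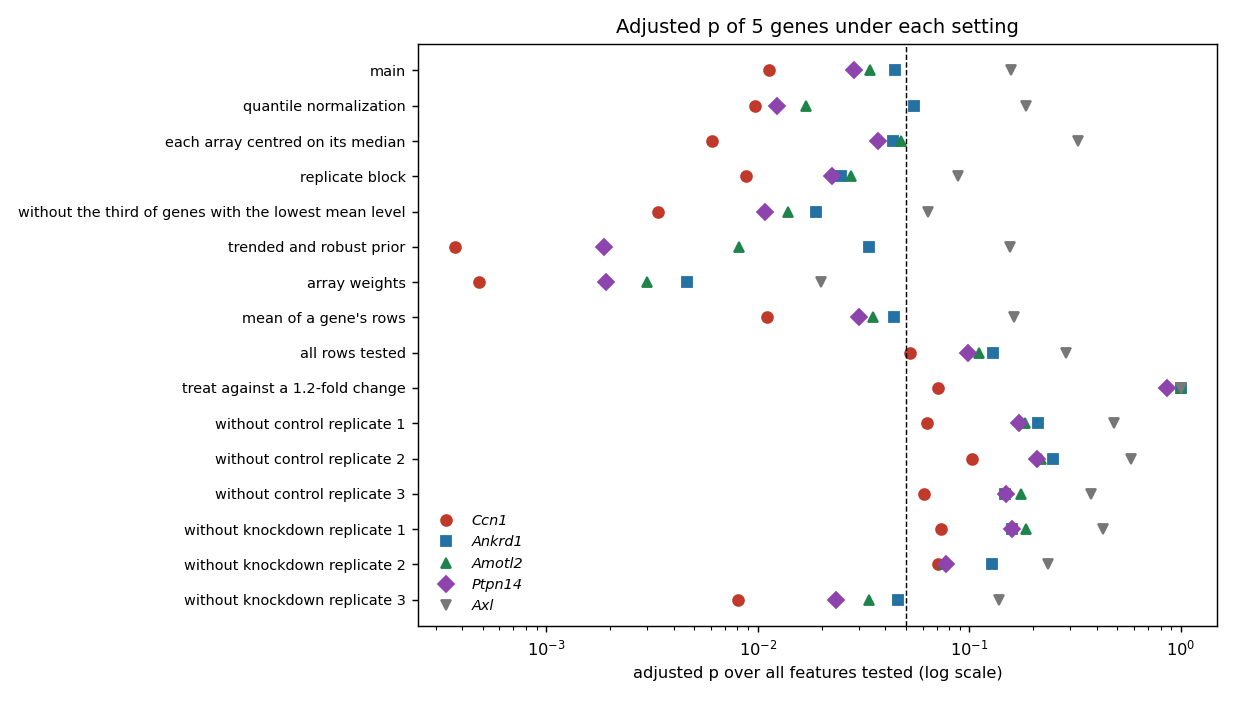
Adjusted p (horizontal axis, log scale) of Ccn1, Ankrd1, Amotl2, Ptpn14 and Axl under the reported fit and each of the 15 other settings, with a dashed line at 0.05. Ccn1 lies left of the line in 9 of 16 settings and Axl in 1, with array weights.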

How the data were processed

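The authors deposited log2 signals, 1 per probe set and array, with values between 2.26 and 14.03, and Affymetrix Expression Console is the tool that the submitters' processing notes name. Its version, the summarisation and any normalization across arrays were not stated, and the range of the values points to a log2 scale. Of 35557 rows, 21789 list 1 gene in the platform annotation, 1621 several and 12147 none. Gene identifiers of 21698 rows were matched to RefSeq (GRCm38.p6), and the row with the highest mean per gene left 19938 named genes. List members without such a row were not analysed here.

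Knockdown was compared with control with R 4.3.3 and limma 3.58.1 (eBayes after lmFit, two-sided, no block), with Benjamini-Hochberg adjustment over all named genes and a threshold of 0.05. Differences are log2 knockdown less log2 control. The procedure was tested on simulated data. The 10 genes, the lists and the tests were chosen with earlier results of these data known, so no p over a list is given. Named are the 10 genes, the CCN, angiomotin, TEAD and Vgll genes, the 22 targets, Tdg, and of the other pathway lists up to 4 called genes a direction, or else the 2 of smallest p. Inhba, Pdgfb, Fgf1, Fgf2, Stk4, Lats1, Nf2 and Srf are named outside this rule, with their values known. For Ccn1 and Ccn2 the 3 nearest profiles are named. The values of 1 of the 22 targets are not reported here.

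Titles number the arrays 1 to 3 in both groups. Deviations from the group means correlated at 0.61, 0.23 and 0.70 between arrays of equal number, above the minimum of 0.1 set for treating numbers as pairs. No label says what equal numbers share, so blocked values hold only if the samples are paired. The number of arrays limits the precision, and signal over background was not analysed here.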

Additional observations from a re-analysis of the deposited data

How the results depend on the processing

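Against 158 calls over all 19938 named genes, limma gave 373 with quantile normalization and 614 with the replicate block. A trended and robust prior gave 446, array weights (gene-by-gene method) 1633 and treat against a 1.2-fold change 14. Without the dimmest genes 444 of 13289 genes were called, and with all rows tested 17 of 35557 rows. Leaving out 1 array gave 0 to 290, and the 3 refits with 0 calls held 1682, 1510 and 1959 genes at an unadjusted p under 0.05. The reported fit called 4 of the 10 Hippo-YAP genes. With all rows tested 0 were called, with treat 0, and without 1 array 0 to 4. At an unadjusted p under 0.05 there were 5 with all rows tested, beside 8.69% of all rows. With treat, whose p tests for a change beyond 1.2-fold, there were 4, beside 1.48% of all named genes. The 90 pathway list genes, with 12 calls, gave 24 with the replicate block, 23 without the dimmest genes, 20 with the trended prior, 31 with array weights, 3 with all rows, 2 with treat and 0 to 15 without 1 array.

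Of 150 refits of single Hippo-YAP genes, 119 kept direction and side of the threshold, 29 lost the call, 1 gained it (Axl with array weights) and 1 turned: Yap1, at -0.0083 without knockdown replicate 2, in a range up to 0.072 over the 6 refits that leave out 1 array. The replicate block changed no call of the 10 genes, and the cause of the other changes was not tested. Tdg kept its call in each setting.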
